A study of Homo sapiens with 6 samples.

Results

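The antiviral interferon effector genes examined here were a list of 50 genes linked to the antiviral response of cells that have received an interferon signal. A region of open chromatin counted as a promoter region of such a gene when it overlapped 2 kb on either side of a transcription start site (TSS) of one of its protein-coding transcripts. Any other region within 100 kb of a start site of an effector gene, with no start site of another protein-coding gene nearer to its midpoint, counted as a distal region. By these rules 39 of the 50 genes had a promoter region (52 regions in all) and 27 had a distal region (78 regions), out of the 108542 regions of the authors' deposited table, which held 20094 promoter regions and 55158 distal regions within that limit. Of the 39 genes, 32 had a promoter region that covered a start site. The genes BST2, IFI27, IFIT3, OASL, SAMD9L, TRIM5 and XAF1 had neither kind of region.

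Type I and type III interferons are secreted upon viral infection and signal through surface receptors and JAK kinases to a complex of transcription factors that includes STAT2 and IRF9. This complex binds a DNA element built on repeats of GAAA, the interferon-stimulated response element (ISRE), in the promoters of its target genes. The effectors among these targets degrade, bind or edit viral RNA, block entry or release of the virus, or tag proteins for degradation. Beta cells express them in the islets of individuals with type 1 diabetes, and their expression has also been described in senescent cells of several types.

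Accessibility was measured by ATAC-seq, in which a transposase inserts adapters into open chromatin, in EndoC-βH3 cells. EndoC-βH3 is a single human beta cell line immortalised with SV40 large T antigen and hTERT transgenes that can be excised by a tamoxifen-inducible Cre recombinase which the cells carry. The senescent group (3 libraries) had received 4-hydroxytamoxifen (4-OHT) for 3 weeks. The non-senescent group (3 libraries) was the untreated control and kept the transgenes. The labels give the genotype as WT in both groups, and each library was made from 100000 cells. Loss of the transgenes, exposure to 4-OHT and senescence came together in the treated group and cannot be told apart.

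The table gives for each region a mean signal (normalised reads averaged across all 6 libraries), a log2 fold change that compares the groups, the standard error (SE) of that change, and no value for a single library. Values are therefore given per group, as the signal that the mean and the fold change of a region together imply for non-senescent and for senescent cells, and the spread between libraries enters only through the SE. The table does not name the numerator of the fold change. It was read as senescent over non-senescent, so that a negative value stands for lower accessibility in senescent cells, a reading that rested on the sign at TERT and MKI67. The region over coding exons of TERT, which the excised hTERT transgene would cover, had a log2 change of -0.64 (SE 0.08), the regions without coding sequence had 0.12 (SE 0.08), -0.23 (SE 0.28) and -0.95 (SE 0.48), none of which passed the adjusted p, and promoter regions of MKI67, a gene of proliferating cells, had -0.53 and -1.35. All directions below rest on this reading. All 10 beta cell marker genes examined had a promoter region, with mean signals from 405 to 7894. Such a region was found for 2 of 7 leukocyte markers, among them CD14 (634), with none at PTPRC or CD3E, and for 3 of 6 fibroblast markers (17.6 to 142). In bulk material, fewer open cells and less opening per cell cannot be told apart.

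At promoters, the effector genes were lower in senescent cells or showed no change past the limits, and none was called higher. A region was called when the adjusted p of the authors' table (DESeq2 Wald test, Benjamini-Hochberg over all regions) was under 0.05 and the fold change was over 1.5, which is 0.58 on the log2 scale. Of the 52 promoter regions, 7 (13.5%) were called lower and 0 were called higher. Over all promoter regions, 9.04% were called lower and 3.56% higher, and over other promoter regions of like mean signal 12.4% were lower, so that the share at the effector genes was near that background. On the adjusted p alone, 23 of the 52 regions (44.2%) were lower and 1 was higher, against 34.7% lower and 10.2% higher over all promoter regions and 30.5% lower at like signal. At an unadjusted p under 0.05, 27 of the 52 were lower and 1 was higher. Over all 20094 promoter regions, 8033 were lower and 2444 higher by this rule, so most promoters leaned the same way. The shift at these promoters was thus mostly smaller than the fold limit, and 0 regions stayed called when a fold change over 1.5 was itself tested.

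Taking for each gene its promoter region of highest mean signal, the median log2 fold change of the 39 effector genes was -0.34 (quartiles -0.54 and -0.11). The median of the other 15454 genes with a promoter region was -0.14, and that of other genes in the same bins of mean signal was also -0.14. Of the 39 genes, 34 were below 0 and 27 were below the median of genes of like signal, by a median of 0.20 over all 39. Most other genes leaned the same way, with 74.4% below 0. Among the effectors, IFITM1 and IFITM2 share their strongest region (-0.82), and PARP9 and DTX3L share theirs (-0.44). Each of these regions is counted under both of its genes. Mean signal ranged from 12.0 at UBE2L6 to 1579 at ZC3HAV1, with a median of 434 against 842 at other genes, and the median SE was 0.10 against 0.08. Genes are not replicates, so these medians carry no test.

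**Figure D1:**
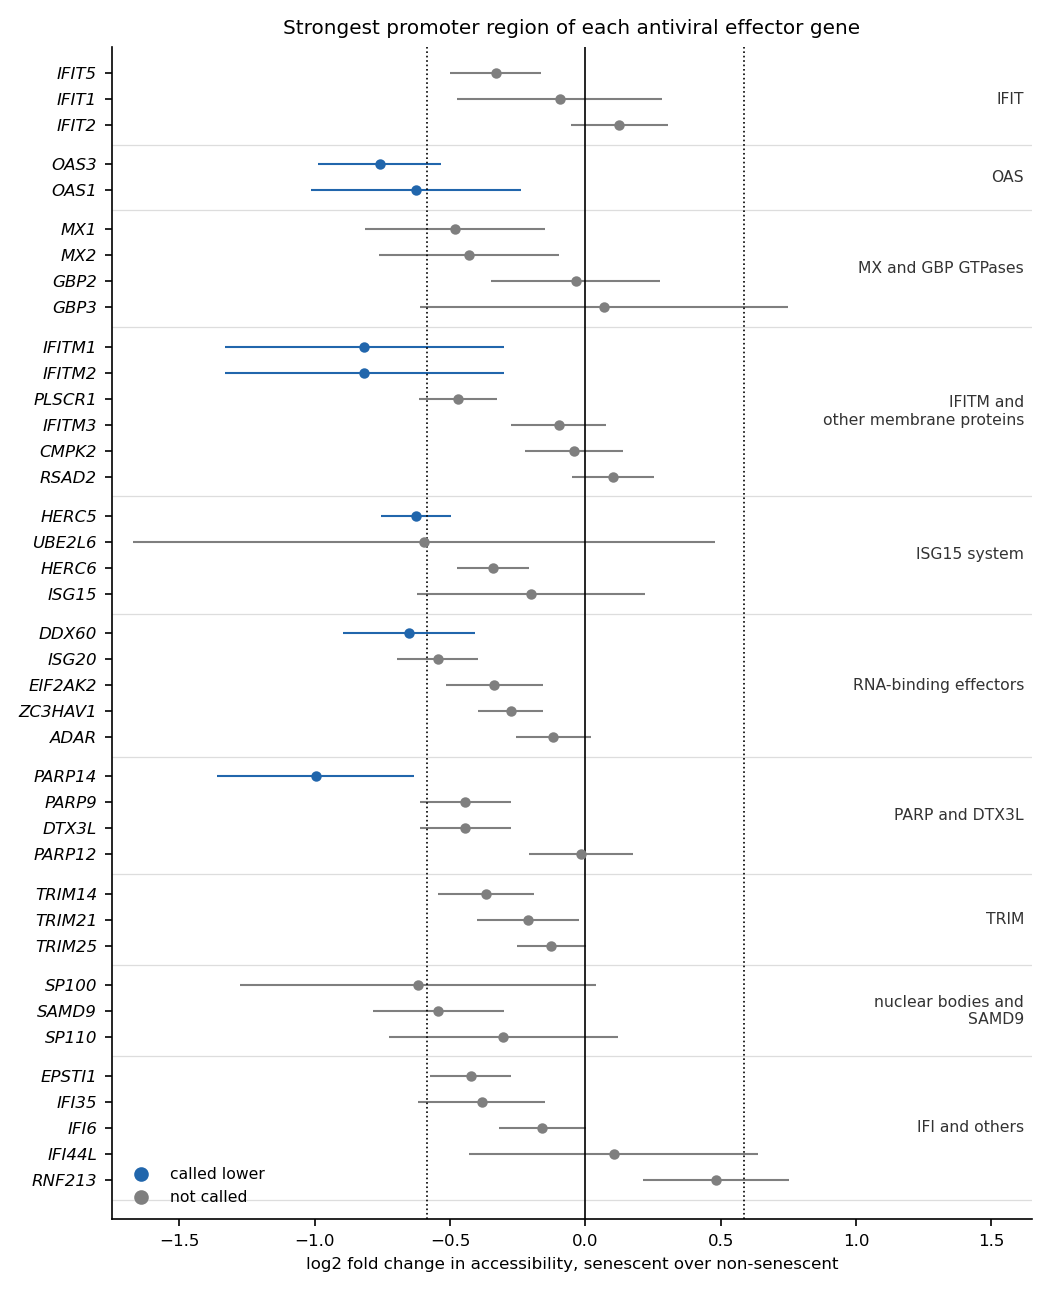
Log2 fold change of the strongest promoter region of each of the 39 effector genes with one, grouped by role. Points are the estimates of the deposited table, bars are 95% intervals from the SE, blue marks regions called lower and dotted lines the fold limit of 1.5. The points of 34 genes lie left of 0, and the lowest is PARP14 at -0.996. IFITM1 and IFITM2 show the same region, as do PARP9 and DTX3L. The called MX1 region is not the strongest of its gene and is not shown.

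The oligoadenylate synthetases, which sense double-stranded RNA and make the second messenger that activates RNase L, had the lowest median among the groups of effectors, at -0.69 over the members with a promoter region. Both of these were called lower. At OAS3 (chr12:112937960-112939015, hg38, on the TSS) the signal went from 444 in non-senescent to 262 in senescent cells, a log2 change of -0.76 (SE 0.12, adjusted p 9.41e-10). At OAS1 (chr12:112906795-112907252, on the TSS) it went from 119 to 77.3, a change of -0.62 (SE 0.20, adjusted p 0.00555). These values differed by less than the SE at OAS1. OAS2 and OASL, the other members of the family, had no promoter region. The 4 distal regions of the family, nearest to OAS1, OAS2 and OAS3, gave values from -0.45 to 0.07 and none was called.

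Among the ADP-ribosyltransferases and their partner, PARP14 had the largest fall of all the effector promoters. Its region on the TSS (chr3:122680535-122681185, untranslated exon) went from a signal of 144 to 72.1, a log2 change of -0.996 (SE 0.19, adjusted p 7.41e-07). PARP14 is a mono-ADP-ribosyltransferase with macrodomains. PARP9 and DTX3L, which form a complex with ubiquitin ligase activity, are transcribed in opposite directions from a shared region, and this went from 778 to 572 (-0.44, SE 0.09, adjusted p 2.18e-06), a fall that passed the adjusted p and not the fold limit. At PARP12, another mono-ADP-ribosyltransferase, the signal was 631 and 625 in the groups (-0.02, SE 0.10). The group thus ranged from the lowest effector promoter to one with the same signal in both groups to within its SE.

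Membrane proteins differed among themselves. The IFITM proteins block fusion of viruses with the cell membrane, and their genes are close paralogs in a cluster on chromosome 11, so that reads may have been shared between them, which was not tested. A region in an intron of IFITM1 (chr11:310499-311570), within 2 kb of start sites of IFITM1 and IFITM2, was called lower, with a signal of 68.0 and 38.6 and a log2 change of -0.82 (SE 0.26, adjusted p 0.00627). It was the called promoter region with the lowest signal. The stronger IFITM3 region, 1660 bp from the TSS, had a signal of 596 and 557 (-0.10, SE 0.09, adjusted p 0.394). PLSCR1, a phospholipid scramblase, fell within the fold limit (from 1098 to 792, -0.47, SE 0.07, adjusted p 2.22e-09). RSAD2, which encodes the radical SAM enzyme viperin, gave 0.10 (SE 0.08, adjusted p 0.303) at a mean signal of 697. Its neighbour CMPK2, a nucleotide kinase, gave -0.04 (SE 0.09, adjusted p 0.742) at 496. BST2, the tetherin that holds budding virions, had no region of either kind.

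In the ISG15 system, which attaches a ubiquitin-like protein to newly made proteins, the ligase gene HERC5 was called lower with the lowest adjusted p of the 7. Its region (chr4:88456434-88457753, on the TSS) went from 1475 to 956, a log2 change of -0.63 (SE 0.07, adjusted p 5.23e-20), which fell short of the fold limit once its trend with either mean signal or GC content had been taken out. The related HERC6 fell within the limit (-0.34, SE 0.07, adjusted p 3.57e-06). ISG15 itself and the conjugating enzyme gene UBE2L6 had weak promoter regions with wide errors. The strongest ISG15 region, which is also a promoter region of HES4, had a signal of 86.4 and 75.2 (-0.20, SE 0.22, adjusted p 0.477), while the region on an ISG15 start site had 42.7 and 27.3 (-0.65, SE 0.33, adjusted p 0.0977). UBE2L6 had 14.4 and 9.55 (-0.60, SE 0.55, adjusted p 0.398).

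Among the effectors that act on RNA, 6 of 7 promoter regions were lower on the adjusted p, against 34.7% of all promoter regions. The 7 regions belonged to 5 genes, with ADAR and ZC3HAV1 each counted more than once. All but that of DDX60 (258) had mean signals from 501 to 1579, and no share at like signal is given for this group. DDX60, a helicase, was called lower (chr4:168318246-168318976, on the TSS), with a signal of 316 and 201 and a log2 change of -0.65 (SE 0.12, adjusted p 1.41e-06), and was not called with either trend removed. ISG20, an exonuclease, fell just short of the fold limit (from 859 to 588, -0.55, SE 0.08, adjusted p 1.73e-11). EIF2AK2, the kinase PKR that halts translation, had -0.34 (SE 0.09, adjusted p 0.00104). ZC3HAV1, the zinc-finger antiviral protein that binds CpG-rich RNA, fell at its main promoter from 1729 to 1429 (-0.28, SE 0.06) and at an upstream region, also a promoter region of TTC26, from 575 to 428 (-0.43, SE 0.09). ADAR, which edits adenosine in double-stranded RNA, has separate promoters for its long and short isoforms. Its strongest region did not pass (1011 and 932, -0.12, SE 0.07, adjusted p 0.171), and its other one gave -0.20 (SE 0.08, adjusted p 0.0325).

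Dynamin-like GTPases gave a mixed picture by region rather than by gene. MX1 had 3 promoter regions. The strongest (chr21:41419980-41421022) had a signal of 149 and 107 (-0.48, SE 0.17, adjusted p 0.0137), and a region at another start site (chr21:41425989-41426886, untranslated exon) was called lower, with 131 and 83.7 (-0.64, SE 0.19, adjusted p 0.00301), though not with the trend on GC content removed. The weakest gave -0.04 (SE 0.31). These intervals overlap. At MX2, which blocks nuclear entry of lentiviruses, the strongest region had -0.43 (SE 0.17, adjusted p 0.0302) and the others 0.04 and 0.19 without passing the test. GBP2 and GBP3, guanylate-binding proteins, had -0.04 (SE 0.16) and 0.07 (SE 0.35), and GBP1 had no promoter region. The GBP2 region lay 1616 bp from the nearest TSS.

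The IFIT genes, whose proteins bind the ends of foreign RNA, had the median nearest to 0, at -0.09. IFIT5 alone had a region that passed the adjusted p (from 895 to 711, -0.33, SE 0.09, adjusted p 5.66e-04), and this region is also a promoter region of LIPA. IFIT1 had -0.09 (SE 0.19, adjusted p 0.726). The strongest IFIT2 region had 0.12 (SE 0.09, adjusted p 0.277), and a weaker one at its other start site, which holds 2 ISRE-type matches, had 93.3 and 65.3 (-0.52, SE 0.23, adjusted p 0.0523). IFIT3 had no region.

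The remaining groups were called at none of their promoters. Of the TRIM ubiquitin ligases, TRIM14 fell within the limit (-0.37, SE 0.09, adjusted p 2.36e-04), and TRIM21 (-0.21) and TRIM25 (-0.13) did not pass. SAMD9, a restriction factor of poxviruses, fell just short of the fold limit (from 312 to 214, -0.54, SE 0.12, adjusted p 6.71e-05). SP110, a nuclear body protein, gave -0.30 (SE 0.22), and SP100 -0.62 (SE 0.34, adjusted p 0.127) at a weak region of an internal start site. Among the IFI genes and others, EPSTI1 (-0.42, adjusted p 3.22e-07) and IFI35 (-0.38, adjusted p 0.00481) fell within the limit, and IFI6 (-0.16, adjusted p 0.104) and IFI44L (0.10, adjusted p 0.787) did not pass. The IFI44L region lay 1944 bp from the nearest TSS and had a mean signal of 50.3. RNF213, a large ubiquitin ligase, was the 1 effector gene with a higher promoter region on the adjusted p. A region 321 bp from its TSS rose from 238 to 332 (0.48, SE 0.14, adjusted p 0.0018), while the region on its TSS had the same signal in both groups (221 and 222). IFI44 and LGALS3BP had distal regions only.

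**Figure D2:**
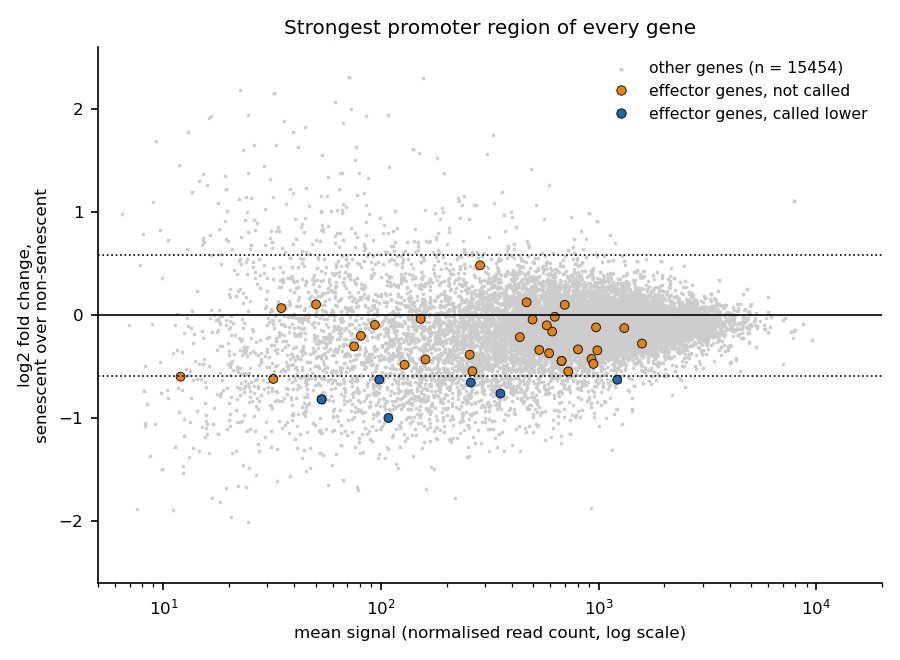
Log2 fold change (vertical axis) against mean signal (horizontal axis, log scale) of the strongest promoter region of every gene, with the 39 effector genes outlined, those called lower in blue, and other genes in grey. The effector genes spread over mean signals from 12.0 to 1579 and most sit below 0, within the cloud of other genes, 2 of which lie outside the axes.

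The promoters were then read for the ISRE-type motif, a pair of GAAA repeats 2 bases apart on either strand, with overlapping matches counted. Of the 44 effector genes with an entry in the RefSeq promoter table (GRCh38.p14, 250 bases before to 50 bases after the start), 31 (70.5%) held a match, against 4.38% of all 27305 symbols. The motif of STAT dimers, TTC and GAA 3 bases apart, was held by 13 (29.5%), against 9.38% of all symbols, and 9 genes held both. The sequences below are those of the called promoter regions that lie outside annotated exons, or 30 bases around a match where the match lies in an exon of some transcript, with RSAD2 as an effector whose promoter did not change past the limits, chosen after its value was seen. Sequences of PARP14, HERC5, OAS3, DDX60 and RSAD2 are from RefSeq, and the IFITM1 sequence is from hg38. Capitals mark the matches. The stretches shown of the PARP14 and HERC5 promoters hold 1 and 3 matches, whereas the IFITM1 region, which is rich in G and C, holds none. The called regions of OAS1 and MX1, which have their middle in an untranslated exon, also hold no match and are not shown.
PARP14 promoter (chr3:122680639-122680838, plus strand): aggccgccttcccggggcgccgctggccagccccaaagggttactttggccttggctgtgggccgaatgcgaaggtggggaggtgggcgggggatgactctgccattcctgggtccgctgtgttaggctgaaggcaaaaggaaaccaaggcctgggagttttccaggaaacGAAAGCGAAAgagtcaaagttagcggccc
HERC5 promoter (chr4:88456919-88457118, plus strand): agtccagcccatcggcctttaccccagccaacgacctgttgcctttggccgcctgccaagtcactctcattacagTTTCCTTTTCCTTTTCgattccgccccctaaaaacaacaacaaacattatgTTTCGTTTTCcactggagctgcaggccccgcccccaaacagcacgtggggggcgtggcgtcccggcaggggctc
OAS3 promoter site (chr12:112938321-112938350, plus strand): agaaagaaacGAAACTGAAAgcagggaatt
DDX60 promoter site (chr4:168318821-168318850, minus strand): gtgctgaaggGAAACTGAAAcctaagtgct
RSAD2 promoter site (chr2:6877622-6877651, plus strand): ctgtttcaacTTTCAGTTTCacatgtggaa
IFITM1 and IFITM2 region (chr11:310621-310820, plus strand): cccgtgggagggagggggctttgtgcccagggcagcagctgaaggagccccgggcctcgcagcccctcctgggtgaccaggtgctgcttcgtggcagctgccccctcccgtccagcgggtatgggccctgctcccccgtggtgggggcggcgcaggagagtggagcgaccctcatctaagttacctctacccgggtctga

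Effector promoters with and without the motif both included lower ones. The 24 effector genes with a match had a median log2 fold change of -0.40 (from -0.996 at PARP14 to 0.10 at IFI44L), with 5 called lower. The 11 without a match had a median of -0.30 (from -0.62 at OAS1 to 0.48 at RNF213), with 1 called lower. The match was sought in the RefSeq promoter and need not lie in the region measured, as at IFITM1, 1 of the 5, and at IFI44L, whose regions hold none. The strongest regions of ISG15, IFITM3 and EPSTI1 also hold none. Conversely, HERC6 (-0.34) and ZC3HAV1 (-0.28) have no match in RefSeq, but their strongest regions hold 2 and 1. The split thus sorts RefSeq promoters and not the regions measured. Against genes of like mean signal the medians were lower by 0.23 and 0.14. Other genes that held the motif (443) had a median of -0.16, with 6.998% called lower, and the 11858 without it had -0.13, with 6.58% called lower. These shares are not at like signal, since the median signals were 781 and 882, against 555 and 285 at the effectors. Over all 39 effector genes, 17.9% were called lower at their strongest region, against 12.3% of other genes of like signal. The match is a description of sequence, and 7 of the 9 effector genes with a RefSeq entry and no promoter region also held one, namely BST2, GBP1, IFI27, IFI44, IFIT3, LGALS3BP and TRIM5.

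**Figure D3:**
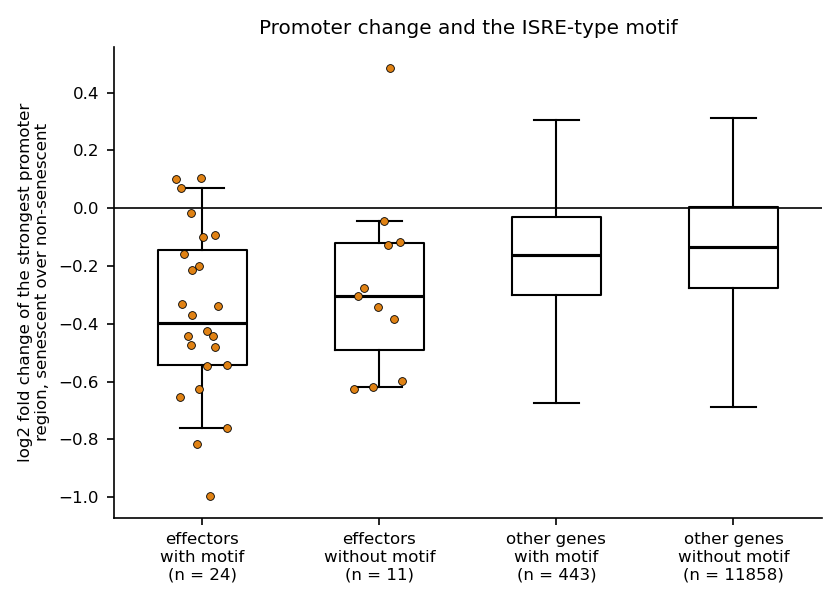
Log2 fold change of the strongest promoter region for effector genes and other genes, split by an ISRE-type match in the RefSeq promoter. Boxes are quartiles with the median, whiskers reach the 5th and 95th percentiles, and points are single effector genes. Medians are -0.40 and -0.30 in the effector genes and -0.16 and -0.13 in the others.

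Distal regions of the effector genes moved in both directions. Of the 78 regions, 13 (16.7%) were called lower and 10 (12.8%) higher, while over all distal regions within the limit 10.9% were lower and 17.4% higher, and at like mean signal 11.6% and 16.9%. The lower calls were thus above and the higher calls below the background, and this difference was not tested. The counts depended on the settings, since a distal limit of 50 kb left 8 lower and 10 higher. A test of a fold change over 1.5 left 3 lower and 6 higher. No background share is given for these settings, so whether the difference from the background changed is not shown. At an unadjusted p under 0.05, 21 of the 78 were lower and 14 higher. Among the 55158 distal regions within the limit, those of other genes gave 12616 lower and 14690 higher by this rule. The median log2 fold change was 0.03, the same as at other distal regions. The 23 called regions belonged to 12 genes, of which 8 had a lower region, 7 a higher one and EPSTI1, PARP14 and ZC3HAV1 both. The nearest start site is an assignment by distance, and no contact with the promoter was measured here.

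**Figure D4:**
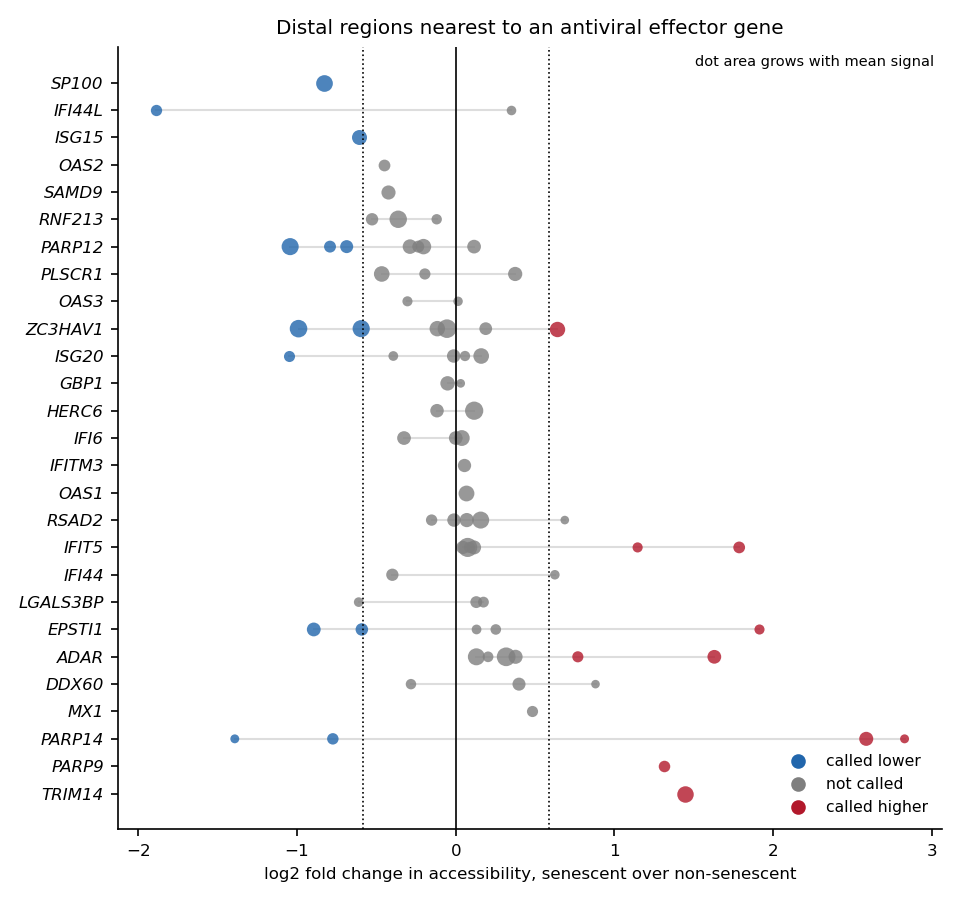
Log2 fold change of the 78 distal regions, 1 line for each of the 27 effector genes, ordered by median. Dot area grows with mean signal, blue and red mark regions called lower and higher, and dotted lines the fold limit of 1.5. The values span -1.89 at IFI44L to 2.83 at PARP14.

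The PARP14 locus showed the widest divergence. All 4 of its distal regions were called. An intronic region 24833 bp downstream of the TSS (chr3:122705389-122705996) rose from a signal of 49.5 to 297, a log2 change of 2.59 (SE 0.17, adjusted p 9.56e-47), the largest rise with a mean signal of at least 20. A weaker intronic region at 33871 bp rose from 4.32 to 30.7 (2.83, SE 0.56, adjusted p 2.95e-06). Upstream of the TSS, the region at 15264 bp fell from 82.7 to 48.4 (-0.77, SE 0.25, adjusted p 0.00577) and the one at 29176 bp fell from 24.3 to 9.28 (-1.39, SE 0.52, adjusted p 0.0215). Thus the promoter and the upstream regions were lower while regions inside the same gene were higher in senescent cells. The regions at 33871 bp and 29176 bp were weak, with mean signals of 17.5 and 16.8. The region at 29176 bp was not called at an adjusted p under 0.01. When a fold change over 1.5 was itself tested, the intronic rises stayed called and the promoter and upstream falls did not. At PARP9, on the far side of PARP15, the 1 distal region, at a coding exon, rose from 38.7 to 95.9 (1.31, SE 0.25, adjusted p 8.6e-07), opposite to the promoter it shares with DTX3L.

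**Figure D5:**
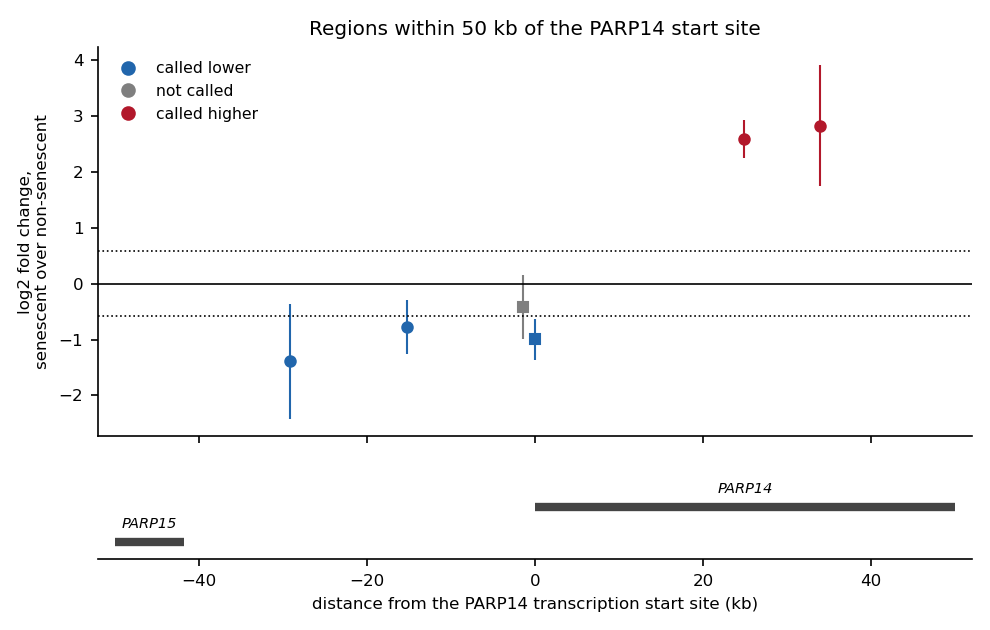
Log2 fold change of every region within 50 kb of the PARP14 TSS, by distance from it in kb with squares for promoter regions, circles for distal regions, bars for 95% intervals from the SE and the extents of protein-coding genes below. Regions at and upstream of the start site lie between -1.39 and -0.42, and the intronic regions at 2.59 and 2.83.

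The central stretches of the PARP14 regions that rose, and of the IFI44L region that had the deepest fall, are shown because they carry the largest distal changes (hg38). None holds the ISRE-type motif, so no letters are in capitals.
PARP14 intronic region at 24833 bp (chr3:122705593-122705792, plus strand): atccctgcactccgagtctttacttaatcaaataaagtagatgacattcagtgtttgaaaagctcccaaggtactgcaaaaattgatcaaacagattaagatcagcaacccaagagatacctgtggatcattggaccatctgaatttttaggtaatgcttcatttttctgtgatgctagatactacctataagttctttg
PARP14 intronic region at 33871 bp (chr3:122714631-122714830, plus strand): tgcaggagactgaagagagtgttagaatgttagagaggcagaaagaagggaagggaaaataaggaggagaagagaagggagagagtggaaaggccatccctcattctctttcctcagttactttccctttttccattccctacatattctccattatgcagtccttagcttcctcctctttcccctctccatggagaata
IFI44L upstream region (chr1:78601105-78601304, plus strand): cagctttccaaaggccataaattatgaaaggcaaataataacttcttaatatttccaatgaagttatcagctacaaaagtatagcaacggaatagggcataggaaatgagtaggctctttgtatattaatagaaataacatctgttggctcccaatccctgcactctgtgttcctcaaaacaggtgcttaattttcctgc

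Other large rises lay at 4 further genes. An intronic region in EPSTI1, 29242 bp from the TSS, rose from 14.4 to 54.1 (1.91, SE 0.35, adjusted p 7.08e-07). A region nearest to IFIT5 but inside an intron of SLC16A12, 34002 bp away, rose from 33.7 to 116 (1.79, SE 0.23, adjusted p 4.8e-13), and another, at a coding exon of the same gene, rose by 1.15 (SE 0.33) on the log2 scale. Within ADAR, a region 8346 bp from the TSS rose from 76.9 to 238 (1.63, SE 0.17, adjusted p 1.21e-19) and another rose by 0.77 (SE 0.27, adjusted p 0.0133). None of the 6 distal regions of ADAR was below 0, and its promoter regions were at -0.12 and -0.20. The strongest of the large rises was nearest to TRIM14, in an intron of CORO2A, from 192 to 523 (1.45, SE 0.11, adjusted p 4.6e-34).

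Falls were led by a region 18697 bp upstream of IFI44L (chr1:78600957-78601453), which went from 96.1 to 26.0, a log2 change of -1.89 (SE 0.30, adjusted p 3.64e-09). The next with a mean signal of at least 20 were a region 66510 bp downstream of ISG20 (from 74.5 to 36.0, -1.05, SE 0.29, adjusted p 0.00121) and one 76152 bp from PARP12 in an intron of TBXAS1 (from 564 to 274, -1.04, SE 0.11, adjusted p 5.42e-20). An intronic ZC3HAV1 region fell from 626 to 315 (-0.99, SE 0.09, adjusted p 1.17e-23), and an intronic EPSTI1 region from 208 to 112 (-0.89, SE 0.16, adjusted p 2.17e-07). The PARP12 and ZC3HAV1 falls were the most precise of these, and the SE at IFI44L and ISG20 was above the median of 0.18 over the distal regions of the effector genes.

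Several genes had falls at more than 1 distal region. PARP12, whose promoter had the same signal in both groups to within its SE, had 3 regions called lower of 7 and none higher, the others at -0.79 (SE 0.25) and -0.69 (SE 0.18). ZC3HAV1 had 2 called lower of 6, the other at -0.60 (SE 0.10), and 1 called higher, at 0.64 (SE 0.13), 9548 bp from the nearest TSS. Removing the trend on mean signal ended the call at -0.60, and removing that on GC content ended the call at 0.64. EPSTI1 had 2 called lower, the other at -0.59 (SE 0.19). Single falls were found at ISG15 (from 283 to 185, -0.61, SE 0.14, adjusted p 3.77e-05), which was not called with the trend on mean signal or GC content removed, and at SP100. The SP100 region, 4059 bp upstream of the nearest protein-coding start site (chr2:230411373-230412394), had a mean signal of 379, more than its promoter region (32.0), and went from 484 to 273 (-0.83, SE 0.10, adjusted p 2.13e-14). It holds 2 ISRE-type matches within 300 bp of sequence around its middle. Over all distal regions of the effector genes, 6 of 78 windows of that size (7.69%) held a match, against 3.78% of all distal regions, and among the 10 regions that rose 1 did, at ADAR.

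The genes upstream of the effectors were read in the same way from a list of 31 receptors, kinases, transcription factors, sensors and inhibitors, of which 27 had a promoter region. Taking the strongest promoter region of each of the 27, 2 were called lower and 0 higher, and on the adjusted p alone 13 were lower and 0 higher. Of all promoter regions, 9.04% and 34.7% were lower by these rules. That background includes regions that are not the strongest of their gene, and no share at like signal is given for this list. The calls were CGAS, the sensor of cytosolic DNA, at -0.89 (SE 0.29, adjusted p 0.00686), and PIAS1, a SUMO ligase that restrains interferon signalling, at -0.66 (SE 0.07, adjusted p 3.5e-18). The CGAS region was weak, with a mean signal of 45.2, where the median over the 27 genes was 928. IRF1 (-0.27, adjusted p 1.6e-04) passed the adjusted p within the fold limit, while STAT2 (-0.09) and IRF9 (-0.17) did not pass. The RNA sensor RIGI had -0.48 (SE 0.10). The median over the 27 genes was -0.20, against -0.34 at the effectors and -0.14 at other genes, and IRF7, STING1, DHX58 and TLR3 had no promoter region.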

How the data were processed

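ATAC-seq libraries of senescent (3) and non-senescent (3) EndoC-βH3 cells were grouped by their labels. Per the submitters' processing notes and the study's methods, the authors trimmed reads with Trim Galore and cutadapt, aligned them to hg38 with Bowtie, removed mitochondrial and duplicate reads with SAMtools and Picard, shifted them for the transposase offset with deepTools, called peaks with MACS2 and compared the counts with DESeq2. Tool versions are not given in the sources used here. Mean signal in the deposited table is an average of normalised counts over all 6 libraries, pooled by the authors. The deposited log2 fold changes and standard errors, the score (Wald statistic), and the p-value and adjusted p-value are the authors' own comparison. They were used because the table holds nothing else, and no model was refitted. The score, p and adjusted p were checked against the fold change and SE over all 108542 regions. The largest SE was 3.89 at an SD of the fold changes of 0.69. The number of reads per library is not in the table, so precision is that of the SE, and nothing shows whether libraries came from separate cultures, so p-values may cover technical spread only. Signal tracks of single libraries were not analysed here.

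Group signals were derived from the mean signal and fold change, with equal weight on the groups. Start sites were those of GENCODE 44. 1 was added to region starts, since the table does not state its counting, and 0 regions passed a chromosome end. Genes of like signal were taken from 20 bins of mean signal. Named were members with a called promoter region, the extremes of each role group, the 5 largest rises and falls among called distal regions with mean signal of at least 20, and genes with 3 or more called distal regions. The values of some genes of the comparison lists are not reported here, though the counts include them. The genes, lists and tests were chosen with earlier results of these data known. Computations used Python 3.11.15, numpy 2.4.6, pandas 2.3.3 and scipy 1.17.1, and were tested on simulated data.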

Additional observations from a re-analysis of the deposited data

How the results depend on the processing

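No paired analysis was possible because single libraries have no values in the deposited file, and for the same reason no library could be left out and no other normalisation run. Of 49 recomputed counts and medians, 42 kept their direction and stayed within the limits set for a move. Without the fold limit, 23 promoter regions were lower and 1 higher. When a fold change over 1.5 was itself tested, the promoter regions called lower fell to 0, and distal regions to 3 lower and 6 higher. Start sites of all transcripts, which gave 42 genes and 63 promoter regions, made 2 promoter regions higher, namely intronic regions of ADAR and EPSTI1 described above as distal, and added a coding-exon region of OASL at -0.78 among 8 lower. A distal limit of 50 kb left 8 distal regions lower and 10 higher. The median of effector promoters was -0.28 with the trend of the fold change on mean signal removed and -0.25 with that on GC content removed, where other genes had -0.03 and -0.02. The distal median lay between -0.03 and 0.04 over its alternatives, on both sides of 0.

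Of the 30 named regions, 28 stayed called at an adjusted p under 0.01, 30 after centring on the median of all regions, 26 with the trend on mean signal removed, 25 with the trend on GC content removed and 9 in the test of a fold change over 1.5. HERC5, DDX60, the distal ISG15 region and a distal ZC3HAV1 region (a different one each time) were lost under each trend removal, and the MX1 region under that on GC content. Of the named regions, 0 turned direction. Other effector regions gained a call. As deposited, 7 promoter regions were lower, and 13 distal regions were lower and 10 higher. With the trend on mean signal removed these counts were 9, 12 and 10. With that on GC content removed they were 7, 15 and 9. The cause of these losses and gains was not tested. Weak regions, such as those of UBE2L6, ISG15 and IFITM1, limit what could be detected.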
